A study of Mus musculus with 4 samples.

Results

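Cells that run short of amino acids, or whose endoplasmic reticulum (ER) is loaded with unfolded protein, phosphorylate the initiation factor eIF2. General translation then falls while the mRNA of the transcription factor ATF4 is translated better, so ATF4 activity is set in large part after transcription. ATF4, paired with C/EBP proteins, drives genes that make and import amino acids, genes of serine and one-carbon metabolism, and genes that feed back on the response. In T cells these same supply genes are also switched on by activation, through growth signals such as mTORC1 and Myc.

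The genes described here are the 36 named members of this response and of its amino acid supply arm, followed across 4 populations of mouse CD4 T cells. Members were chosen by gene name with the signals of these 4 arrays already known, so their differences are a description and carry no test. A gene was represented by the probe set with the highest mean log2 signal over the 4 arrays. Of the 36 members, 35 had a probe set assigned to that gene alone, out of 18193 such genes, and the signal of Pycr1 was not analysed here. The floor is 12.1, the median signal of all probe sets on all arrays. Of the 35 members, 34 were measured, which means that their signal passed the floor on 1 array or more, and 31 lay above it on all 4 arrays. The member below it throughout was Slc7a11, the cystine importer, at 6.44 in exFoxp3Th17, 4.07 in Th17, 6.33 in Treg and 4.16 in Th0.

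All cells came from spleen and lymph nodes of C57BL/6 mice aged 8 to 10 weeks and were sorted after culture on a GFP signal for IL-17 and on Foxp3. The exFoxp3Th17 array holds IL-17+Foxp3- cells grown in Th17 conditions out of Foxp3+ CD4 T cells. The Th17 array holds cells of the same gate grown from naive CD4 T cells under the same named conditions. The Treg array holds IL-17-Foxp3+ cells grown from Foxp3+ CD4 T cells with IL-2, and the Th0 array holds IL-17-Foxp3- cells grown from naive CD4 T cells under Th0 conditions. Each group is 1 array, with no replicate, and the labels do not say whether mice were pooled. A gene is called higher or lower where the signals differ by 2-fold or more and the higher one is above the floor, and where the lower one is under the floor the fold is a bound, written "at least".

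All 6 measured CD4 T cell markers lay above the floor on all 4 arrays, including Cd3d, part of the T cell receptor complex (3133 to 4536). They were not all level. Thy1 was at 1056 in exFoxp3Th17, 1790 in Th17, 2798 in Treg and 2928 in Th0, 2.65-fold lower in exFoxp3Th17 than in Treg. Cd4 was at 98.1, 81.2, 48.3 and 109.6 in that order. Its Treg signal was 2.03-fold below exFoxp3Th17 and 2.27-fold below Th0. Foxp3 was at 8.03 in exFoxp3Th17, 6.20 in Th17, 584.9 in Treg and 4.25 in Th0, while the probe set of Il17a lay below the floor everywhere (7.09 to 9.81). The B cell genes Cd79a, Ms4a1 and Pax5 and the myeloid genes Lyz2, Cd14 and Mpo were below the floor on all arrays. Of the other-cell markers, Mzb1 (lowest 12.4 in exFoxp3Th17), Csf1r (12.6 to 23.4) and the CD8 gene Cd8b1 (51.7 to 83.5) were above it on all 4. Among markers of other cells, those that passed a 2-fold difference were Sdc1, highest in exFoxp3Th17 (37.3), Cd79b and Prf1, highest in Treg (55.6 and 56.0), and Adgre1, highest in Th0 (32.2). Summed over the markers that have a probe set, B and plasma cell signal was 86.6 in exFoxp3Th17, 46.5 in Th17, 114.2 in Treg and 56.6 in Th0, and that of the CD4 T cell markers 12038, 10116, 9675 and 12433. The part of such cells in the results was not tested. Sex-linked transcripts split the arrays: Xist was at 3766 in exFoxp3Th17, against 7.73 in Th17, 10.8 in Treg and 7.41 in Th0, and the Y-linked gene Eif2s3y at 4.66, 875.8, 654.5 and 747.3 in the same order. In each comparison with exFoxp3Th17, sex and group therefore cannot be told apart.

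The binding element of ATF4 with C/EBP proteins was looked for in the promoters, and since several members were picked as known ATF4 targets, matches among them were to be found more often by that choice. The element was searched as TGATGNAAN on both strands, in 300 bases running from 250 before to 50 after each RefSeq start (GRCm38.p6). It was found in 9 of the 31 members that the promoter table holds (29.0%) and in 4.50% of all 27025 genes there. The members were Asns, Chac1, Herpud1, Nupr1, Pycr1, Slc1a4, Slc7a11, Trib3 and Vldlr. The strict form TGATGCAAT, contained in the first, was in 2 members, Nupr1 and Pycr1, and in 0.222% of all genes. The ER stress element, searched by its full form on both strands, was in 1 member, Hspa5, and in 0.137% of all genes. A match is a run of letters and not a shown binding site.

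The upstream sequences below are of the 4 members called in at least 1 comparison whose element lies wholly before the start, and of Hspa5. Each is on the strand of its gene, with the element in capitals, and Chac1, Nupr1 and Vldlr carry it in the reverse orientation. The Asns stretch is chr6:7693210-7693262 on the minus strand, with the element 23 to 15 bases before the start. The Chac1 stretch is chr2:119351018-119351086 on the plus strand (194 to 186 bases before). The Nupr1 stretch is chr7:126625543-126625611 on the minus strand (111 to 103 bases before). The Vldlr stretch is chr19:27216789-27216857 on the plus strand (201 to 193 bases before). The Hspa5 stretch is chr2:34771995-34772073 on the plus strand, with the ER stress element 65 to 47 bases before the start.
Asns: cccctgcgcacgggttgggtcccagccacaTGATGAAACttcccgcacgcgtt
Chac1: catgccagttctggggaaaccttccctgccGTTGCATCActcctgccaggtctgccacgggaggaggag
Nupr1: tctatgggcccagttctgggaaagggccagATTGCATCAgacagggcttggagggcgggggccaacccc
Vldlr: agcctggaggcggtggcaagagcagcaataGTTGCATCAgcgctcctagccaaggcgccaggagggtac
Hspa5: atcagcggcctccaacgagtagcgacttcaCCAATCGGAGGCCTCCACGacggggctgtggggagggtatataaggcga

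Across the 4 arrays the members were most often lowest in exFoxp3Th17 and highest in Th17. Of the 34 measured members, 19 had their lowest signal in exFoxp3Th17, 2 in Th17, 5 in Treg and 8 in Th0. The highest signal was in exFoxp3Th17 for 3 members, in Th17 for 18, in Treg for 8 and in Th0 for 5. Over all 11769 measured genes the lowest signal was in exFoxp3Th17 for 27.5% and the highest in Th17 for 18.4%. In bulk RNA, fewer cells that use a gene and less of its RNA per cell cannot be told apart.

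**Figure D1:**
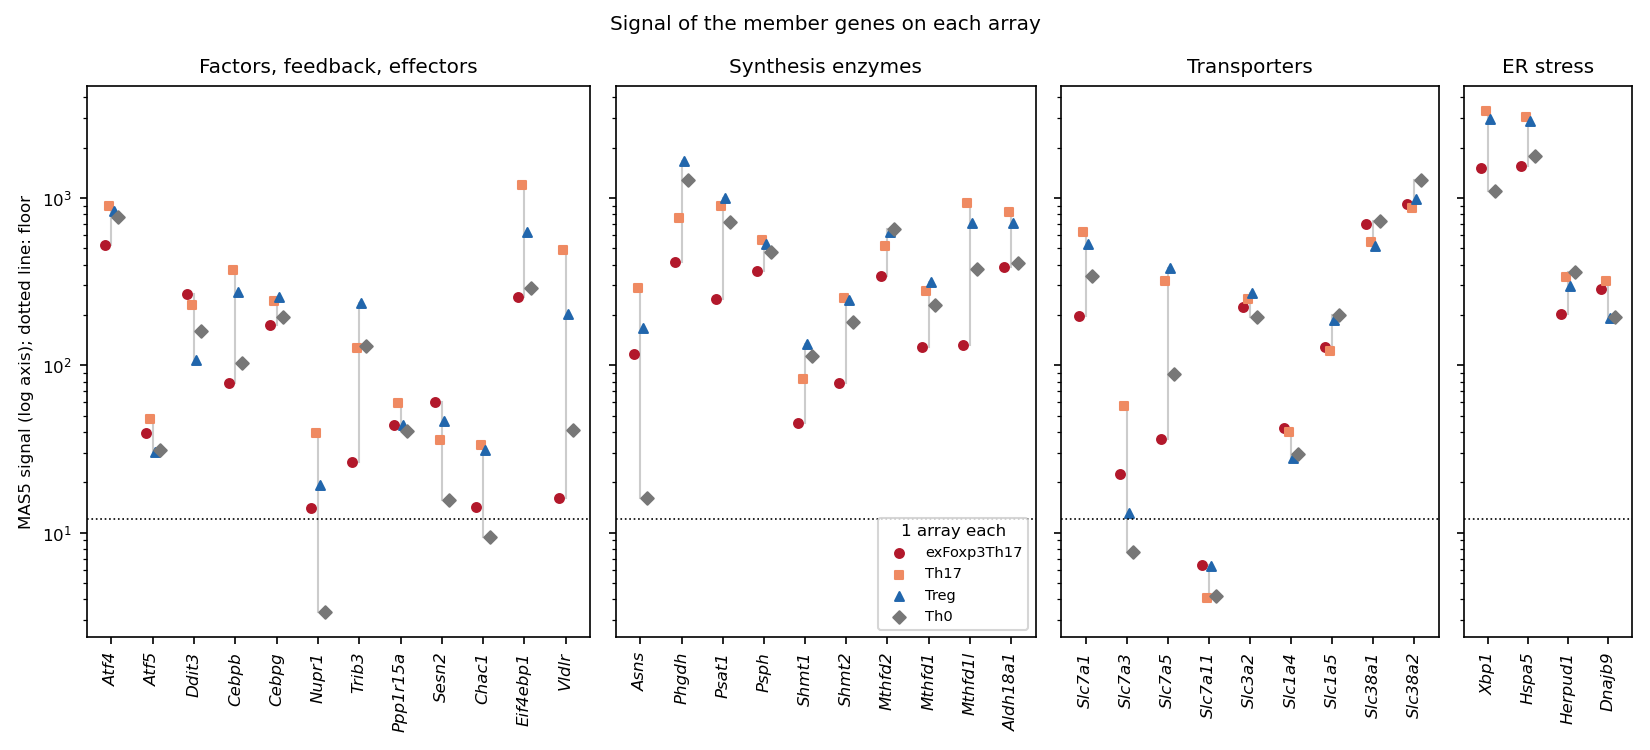
Signal of each member on each array (log axis), grouped by role, with 1 point per array and the floor of 12.1 as a dotted line. The exFoxp3Th17 point is the lowest for 9 of the 10 synthesis enzymes shown, while Slc3a2, Slc1a4, Slc38a1 and Slc38a2 keep close together.

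Set against Th17 cells, which differ in origin, exFoxp3Th17 cells had 0 members higher and 16 lower among 34, with 18 within 2-fold. Over all measured genes the shares were 7.48% higher and 7.27% lower, and since the members were chosen by these signals nothing is read from the gap. The members' median log2 ratio was -0.92, and that of all measured genes was 0.03. Set against Treg cells, which share the Foxp3+ origin but not the culture or gate, 1 member was higher and 13 were lower (median -0.77), where 11.3% of all measured genes were higher and 9.94% lower (median 0.02). Both comparisons use the same exFoxp3Th17 array. Th17 against Th0 had 12 members higher and 0 lower (median 0.54), where 8.22% of all measured genes were higher and 6.88% lower (median -0.02). Treg against Th0 had 8 higher and 0 lower (median 0.45), where 5.56% were higher and 4.95% lower (median -0.01), and these comparisons share the Th0 array.

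**Figure D2:**
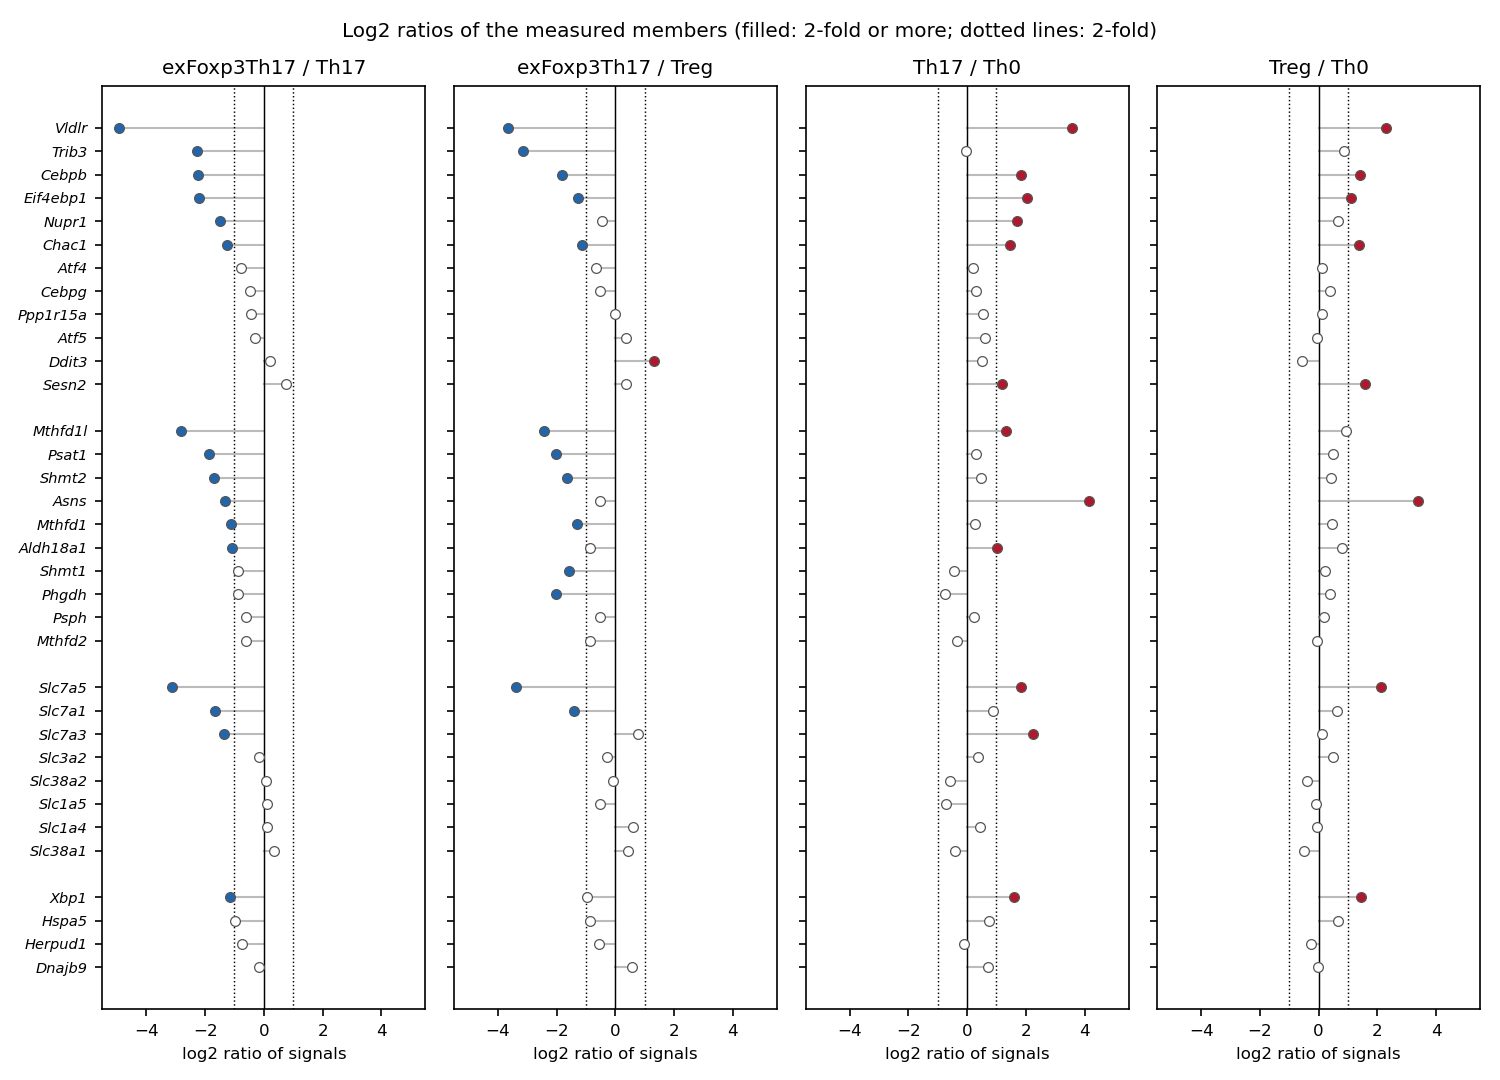
Log2 ratio of the 34 measured members in the 4 comparisons, grouped by role and ordered by the first one. Filled points differ by 2-fold or more, as 16 members do in exFoxp3Th17 against Th17, all lower, and 12 in Th17 against Th0, all higher.

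Atf4 itself was not called in any comparison. It had a signal of 524.7 in exFoxp3Th17, 895.8 in Th17, 831.7 in Treg and 773.5 in Th0. The exFoxp3Th17 array was the lowest, by 1.71-fold against Th17 and 1.59-fold against Treg. Another Atf4 probe set put exFoxp3Th17 lower by more, at log2 ratios of -1.16 against Th17 and -1.30 against Treg. Cebpg, a C/EBP partner of ATF4, stayed within 2-fold by its chosen probe set, at 175.1 in exFoxp3Th17, 241.2 in Th17, 254.6 in Treg and 193.7 in Th0. A dim Cebpg probe set, under the floor in Th17 only, had the opposite sign, with bounds of 0.82 for exFoxp3Th17 against Th17 and -1.23 for Th17 against Th0 on the log2 scale. Atf5, a relative of ATF4 that is induced under the same stress, was low and level (39.2, 47.9, 30.3 and 31.2 in that order of arrays).

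Cebpb, the C/EBP factor of inflammatory and stress responses, was called in all comparisons. Its signal was 77.9 in exFoxp3Th17, 373.1 in Th17, 273.2 in Treg and 103.3 in Th0. The Th17 and Treg arrays stood apart from the other pair, and exFoxp3Th17 was 4.79-fold lower than Th17 and 3.50-fold lower than Treg. The second Cebpb probe set gave log2 ratios of -2.18 and -1.90 in these comparisons.

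Ddit3, which encodes the pro-apoptotic factor CHOP, had its highest signal in exFoxp3Th17. It was at 266.1 in exFoxp3Th17, 229.7 in Th17, 108.3 in Treg and 160.6 in Th0, and at 2.46-fold it was the 1 member called higher in exFoxp3Th17 than in Treg. Its other probe set was 54.8 in exFoxp3Th17 and 42.6 in Treg, a log2 ratio of 0.36, so the call rests on 1 of its probe sets. Against Th17 the pair of Ddit3 probe sets differed in sign (0.21 and -0.18).

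Among feedback and effector genes, Vldlr gave the largest ratio of all members. Vldlr, a lipoprotein receptor induced by ATF4 under ER stress, was at 16.1 in exFoxp3Th17, 490.6 in Th17, 201.4 in Treg and 40.8 in Th0. Its exFoxp3Th17 signal, close to the floor, was 30.4-fold lower than in Th17 and 12.5-fold lower than in Treg, and Th17 was 12.0-fold above Th0. All 5 other Vldlr probe sets were above the floor in Th17 and below it in exFoxp3Th17, with log2 ratios, each a bound, of -0.57 to -3.26. Eif4ebp1 encodes 4E-BP1, a repressor of the cap-binding initiation factor. Its signal was 256.5 in exFoxp3Th17, 1196 in Th17, 626.4 in Treg and 289.2 in Th0. For Eif4ebp1 the exFoxp3Th17 and Th0 arrays lay within 1.13-fold of each other, and exFoxp3Th17 was 4.66-fold below Th17. A dim Eif4ebp1 probe set stayed under 2-fold for Th17 against Th0 (log2 0.75) and exFoxp3Th17 against Treg (-0.47, a bound).

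Trib3, a pseudokinase induced by ATF4 that restrains it, had another order. It was at 26.5 in exFoxp3Th17, 127.1 in Th17, 236.3 in Treg and 130.4 in Th0. The exFoxp3Th17 signal was the lowest by far, 4.79-fold below Th17, 8.90-fold below Treg and 4.91-fold below Th0, whereas Th17 and Th0 were within 1.03-fold. Chac1, which degrades glutathione, was dim throughout, at 14.2 in exFoxp3Th17, 33.6 in Th17, 31.2 in Treg and 9.37 in Th0, the last below the floor. With the floor set at 2 times its value, Chac1 was not called in any comparison. Nupr1, a stress-induced nuclear protein, was at 14.1, 39.6, 19.3 and 3.35 in that order, and exFoxp3Th17 was 2.81-fold lower than Th17. Like Chac1, Nupr1 was not called in any comparison at 2 times the floor.

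Sesn2, the leucine-sensing inhibitor of mTORC1, was highest in exFoxp3Th17. Its signal was 60.1 in exFoxp3Th17, 35.9 in Th17, 46.4 in Treg and 15.6 in Th0. The ratio to Th17 was 1.68-fold and not called, but a second, dimmer probe set gave 34.0 in exFoxp3Th17 and 15.9 in Th17, a log2 ratio of 1.10. Against Th0, Sesn2 was 2.30-fold higher in Th17 and 2.97-fold higher in Treg. Since Th0 lies near the floor, neither call held at 2 times the floor (log2 ratios of 0.57 and 0.94), and the Th17 ratio was also under 2-fold with the floor as a pseudocount (0.79) and over the mean of its probe sets (0.80). Ppp1r15a (GADD34), which leads a phosphatase to eIF2, was within 2-fold everywhere, at 40.7 to 59.9.

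The 10 measured synthesis enzymes all had a lower signal in exFoxp3Th17 than in Th17, and 6 passed 2-fold. The counts against Treg, which share the exFoxp3Th17 array, were also 10 and 6. The median log2 ratio of the 10 was -1.11 against Th17 and -1.44 against Treg. Over all measured genes, 7.27% were lower than in Th17 (median 0.03) and 9.94% lower than in Treg (median 0.02). The enzymes, like all members, were chosen with these signals known, so nothing is read from the gap. Asns, asparagine synthetase and a classical ATF4 target, was at 116.5 in exFoxp3Th17, 288.2 in Th17, 166.4 in Treg and 16.1 in Th0. It was the 1 synthesis enzyme whose lowest array was Th0, with Th17 17.9-fold, Treg 10.4-fold and exFoxp3Th17 7.25-fold above it. The Th0 signal is close to the floor, and across the settings of floor and probe set the log2 ratio to Th0 lay between 3.41 and 4.17 for Th17 and between 2.64 and 3.37 for Treg. Between exFoxp3Th17 and Th17 it differed 2.47-fold, and its second probe set, at 85.7 and 302.9 on those arrays, went the same way.

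Serine synthesis starts with Phgdh, followed by Psat1 and Psph. Phgdh was at 416.1 in exFoxp3Th17, 761.1 in Th17, 1674 in Treg and 1276 in Th0, so both arrays of Th17 conditions lay below the other pair. The exFoxp3Th17 signal was 4.02-fold below Treg and 1.83-fold below Th17, and its 3 other probe sets were lower too (log2 -1.90 to -2.14 against Treg). Psat1 was at 247.9 in exFoxp3Th17, 898.2 in Th17, 1006 in Treg and 721.5 in Th0. There exFoxp3Th17 stood alone, 3.62-fold below Th17 and 4.06-fold below Treg, with the remaining arrays within 1.39-fold. Psph, the last step, stayed within 2-fold (366.6, 560.5, 532.5 and 472.6 in the order exFoxp3Th17, Th17, Treg and Th0).

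The enzymes that pass serine carbon into the folate cycle followed. Shmt2, the mitochondrial serine hydroxymethyltransferase, was at 78.7 in exFoxp3Th17, 253.8 in Th17, 245.4 in Treg and 181.6 in Th0, which is 3.22-fold below Th17 and 3.12-fold below Treg. Its cytosolic counterpart Shmt1 was at 45.2, 82.9, 133.7 and 113.9 in that order, 1.83-fold below Th17 and 2.96-fold below Treg. Another Shmt1 probe set differed more, at log2 ratios of -2.91 and -3.09. By the chosen probe sets exFoxp3Th17 was the low array in both genes.

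Mthfd1l, which makes formate in mitochondria, was called in both of these comparisons. It was at 131.6 in exFoxp3Th17, 937.2 in Th17, 709.9 in Treg and 376.4 in Th0, 7.12-fold below Th17 and 5.40-fold below Treg. It has 1 probe set, so no second reading exists. Mthfd2, the mitochondrial enzyme next to it in the pathway and a known ATF4 target, was at 341.4, 517.6, 627.8 and 650.5 and not called, but a second Mthfd2 probe set passed 2-fold against Treg (log2 -1.20). The cytosolic enzyme Mthfd1 (128.0, 277.7, 316.6 and 229.5) was 2.17-fold below Th17 and 2.47-fold below Treg. Aldh18a1, which opens proline synthesis, was at 385.3 in exFoxp3Th17, 823.4 in Th17, 708.2 in Treg and 409.0 in Th0, near the line at 2.14-fold below Th17. Its other probe sets lay on both sides of that line (log2 -0.69 to -1.51). Th17 was 2.01-fold above Th0, a call that the other Aldh18a1 probe sets did not reach (log2 0.57 to 0.79).

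Transporters divided into a group that differed and a group that did not pass 2-fold. Slc7a5, the light chain of the large neutral amino acid transporter LAT1, was at 36.5 in exFoxp3Th17, 318.1 in Th17, 383.0 in Treg and 88.8 in Th0. Its exFoxp3Th17 signal was 8.72-fold below Th17, 10.5-fold below Treg and 2.44-fold below Th0. Slc3a2, the heavy chain with which Slc7a5 pairs, was at 223.2, 248.6, 269.4 and 193.9 in the order exFoxp3Th17, Th17, Treg and Th0, a range of 1.39-fold. Each of these genes has 1 probe set here.

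The arginine and lysine carriers went with Slc7a5 against Th17. Slc7a1 was at 198.5 in exFoxp3Th17, 627.8 in Th17, 531.4 in Treg and 342.7 in Th0, which is 3.16-fold below Th17 and 2.68-fold below Treg. Slc7a3 was at 22.5 in exFoxp3Th17, 57.3 in Th17, 13.1 in Treg and 7.62 in Th0, so it was 2.55-fold below Th17 but 1.72-fold above Treg. Its highest array was Th17, at least 4.74-fold above Th0.

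The small neutral amino acid carriers kept within 2-fold in all 4 comparisons by their chosen probe sets. Slc1a5, the glutamine carrier ASCT2, was at 129.2 in exFoxp3Th17, 121.2 in Th17, 185.9 in Treg and 200.0 in Th0. Slc38a1 and Slc38a2, sodium-coupled glutamine and alanine carriers, were at 697.3 and 918.2 in exFoxp3Th17, 546.2 and 867.0 in Th17, 515.7 and 984.1 in Treg, and 723.9 and 1289 in Th0. Slc1a4 was at 42.4, 39.7, 28.1 and 29.5 in that order of arrays. A second Slc38a2 probe set (286.0, 167.1, 180.3 and 369.3) was past 2-fold lower than Th0 in Th17 (log2 -1.14) and in Treg (-1.03). The highest of the chosen signals was on the Th0 array for Slc1a5, Slc38a1 and Slc38a2.

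Among the ER stress members, Xbp1, the factor spliced by IRE1, differed most. Its signal was 1505 in exFoxp3Th17, 3308 in Th17, 2959 in Treg and 1099 in Th0. Th17 was 3.01-fold and Treg 2.69-fold above Th0, while exFoxp3Th17 was 2.20-fold below Th17 and 1.97-fold below Treg. Other Xbp1 probe sets gave log2 ratios of -0.75 to -1.56 for exFoxp3Th17 against Th17 and -0.79 to -1.49 against Treg. The probe sets do not tell spliced from unspliced Xbp1. Hspa5, the ER chaperone BiP, was at 1553, 3045, 2866 and 1795 in the same order. It was 1.96-fold lower in exFoxp3Th17 than in Th17 and just short of a call. Its other probe sets gave log2 ratios of -1.53 and -0.51 in that comparison. For Th17 against Th0 the dimmest Hspa5 probe set (-0.43) had the opposite sign to the chosen one (0.76). Herpud1, a part of ER-associated degradation, and Dnajb9, an ER co-chaperone, were within 2-fold (203.4 to 360.4 and 191.8 to 318.3).

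In exFoxp3Th17 against Th17 the member just inside the 2-fold line was Aldh18a1 (log2 -1.10) and the one just outside was Hspa5 (-0.97). In exFoxp3Th17 against Treg these were Chac1 (-1.14) and Xbp1 (-0.98). Of the 16 members called in the first comparison, 12 had other probe sets above the floor, all of which went the same way in all 12 genes and by 2-fold or more in 8. Of the 14 called in the second, 11 had others, which went the same way in all 11 and by 2-fold or more in 6. Of the 12 called in Th17 against Th0, 8 had others, all in the same direction but by 2-fold or more in only 3. For Treg against Th0, 6 of the 8 called had others, again in the same direction, and by 2-fold or more in 3.

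Further genes of the response were taken from 9 lists that held no member. Those lists too were chosen with earlier results of these data known, so nothing is read from a gap to all measured genes. Of 12 further ATF4 targets, exFoxp3Th17 had 2 above and 5 below Th17, and 2 above and 4 below Treg (medians -0.80 and -0.12). Over all measured genes, 7.48% were higher and 7.27% lower than in Th17, and 11.3% higher and 9.94% lower than in Treg. Ero1a, an ER oxidase, was at 244.5 in exFoxp3Th17, 2052 in Th17, 966.5 in Treg and 363.8 in Th0, 8.39-fold below Th17. Cth, which makes cysteine, was above the floor on the Th17 array only (78.7), at least 6.51-fold over exFoxp3Th17. The higher ones were Jdp2, an AP-1 family repressor (99.1, 26.2, 47.9 and 6.07 on exFoxp3Th17, Th17, Treg and Th0), and Gadd45a, a growth arrest gene (272.1, 77.7, 34.7 and 63.7). Th17 against Th0 had 8 of these 12 higher and 0 lower, where 8.22% of all measured genes were higher and 6.88% lower.

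Of 20 further ER stress genes, exFoxp3Th17 had 0 above and 5 below Th17, and 0 above and 8 below Treg (medians -0.61 and -0.63). These lower calls are 25% and 40% of the list, where 7.27% and 9.94% of all measured genes were lower. Sdf2l1, a partner of BiP, was at 135.8 in exFoxp3Th17, 669.1 in Th17, 527.7 in Treg and 231.5 in Th0. Hsp90b1, the chaperone GRP94, was at 625.2 in exFoxp3Th17, 2061 in Th17, 2634 in Treg and 1842 in Th0, 3.30-fold below Th17 and 4.21-fold below Treg. The eIF2 kinase PERK, encoded by Eif2ak3, ran the other way, at 571.3 in exFoxp3Th17, 278.0 in Th17, 216.0 in Treg and 256.1 in Th0, and was the only call among 10 eIF2 kinase, eIF2 and eIF2B genes in those 2 comparisons. That 1 higher call is 10% of its list, near the 7.48% and 11.3% of all measured genes called higher.

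Of 18 cytosolic aminoacyl-tRNA synthetases, which load tRNAs with amino acids, 17 had a lower signal in exFoxp3Th17 than in Th17 (median -0.69). Only Cars and Iars passed 2-fold (2.30-fold and 2.28-fold lower), 11.1% of the list against 7.27% of all measured genes. Against Treg 17 were again lower (median -0.51), and Cars and Wars passed (2.21-fold and 4.46-fold lower). This was again 11.1%, near the 9.94% of all measured genes. Of 15 mitochondrial synthetases, 0 were called lower and 1, Fars2, was called higher in each comparison, with medians of 0.09 and 0.39. The 1 higher call is 6.67% of that list, below the 7.48% and 11.3% of all measured genes. Of 10 further folate genes, 4 were lower than in Th17 and 0 higher, and 3 were lower than in Treg and 1 higher. Tyms, which makes thymidylate for DNA, was at 9.24 in exFoxp3Th17, 36.4 in Th17, 48.8 in Treg and 88.0 in Th0.

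**Figure D3:**
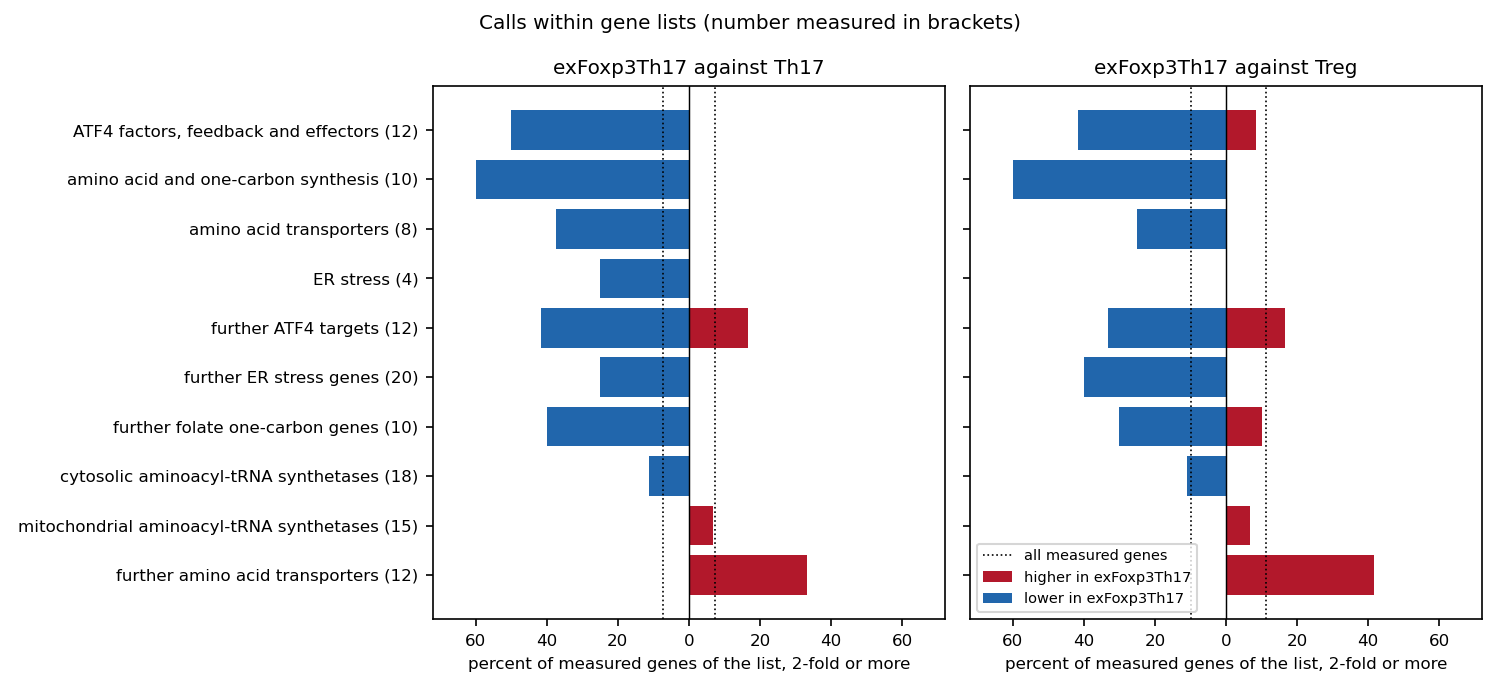
Share of the measured genes of each list called higher (right) or lower (left) in exFoxp3Th17 than in Th17 or Treg, with dotted lines at the shares over all measured genes. Lower calls make up 60.0% of the synthesis enzymes in both panels, and the further amino acid transporters hold only higher calls.

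Amino acid transporters outside the members had calls in the other direction. Of 12 measured, exFoxp3Th17 had 4 above and 0 below Th17, and 5 above and 0 below Treg (medians 0.46 and 0.65). Over all measured genes, 7.48% were higher and 7.27% lower than in Th17, and 11.3% higher and 9.94% lower than in Treg. Slc38a6 was at 839.0 in exFoxp3Th17, 125.1 in Th17, 59.9 in Treg and 102.5 in Th0, 6.71-fold above Th17 and 14.0-fold above Treg. Slc43a2 and Slc43a1, carriers of large neutral amino acids like LAT1 but of another family, were 3.30-fold and 3.66-fold above Th17. Slc38a9, a lysosomal arginine sensor of mTORC1, was at 251.4, 116.3, 77.7 and 133.0 on exFoxp3Th17, Th17, Treg and Th0. Of 8 further glutamine, proline and aspartate genes, 1 was higher (Glul, glutamine synthetase, 2.22-fold) and 1 lower (Got1, 3.56-fold) than in Th17, and 0 passed against Treg.

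Among growth regulators, Myc was at 222.2 in exFoxp3Th17, 986.1 in Th17, 527.3 in Treg and 566.9 in Th0, 4.44-fold below Th17 and 2.37-fold below Treg, and its part in the members' levels was not tested. Of the 12 mTORC1 and growth regulators listed, Myc among them, exFoxp3Th17 had 2 above and 2 below Th17, and 1 above and 3 below Treg, with 8 within 2-fold each time. The shares of all measured genes were 7.48% above and 7.27% below Th17, and 11.3% above and 9.94% below Treg. Castor1, the cytosolic arginine sensor that inhibits mTORC1, was at 131.6, 340.9, 326.2 and 162.0 on exFoxp3Th17, Th17, Treg and Th0. The sestrins Sesn1 and Sesn3 were 3.95-fold and 2.47-fold above Th17, and Sesn3 was 11.5-fold above Treg (3119 against 271.0).

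Th17 conditions can be set side by side in cells of both origins, since Th17 against Th0 and exFoxp3Th17 against Treg share no array. Higher in the naive-derived pair and lower in the Foxp3-derived pair were 6 of the 34 members, and 160 of all 11769 measured genes (1.36%). The 6 were Cebpb, Chac1, Eif4ebp1, Vldlr, Mthfd1l and Slc7a5, and Chac1 left the pattern at 2 times the floor (log2 0.47 and -0.37). Eif4ebp1 left it over the mean of its probe sets (log2 -0.97 for exFoxp3Th17 against Treg). The opposite pattern was seen in 0 members and in 1.16% of all measured genes. The pairs are not the same contrast, since Treg cells were grown with IL-2 and sorted as Foxp3+, and the difference between the pairs was not tested.

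**Figure D4:**
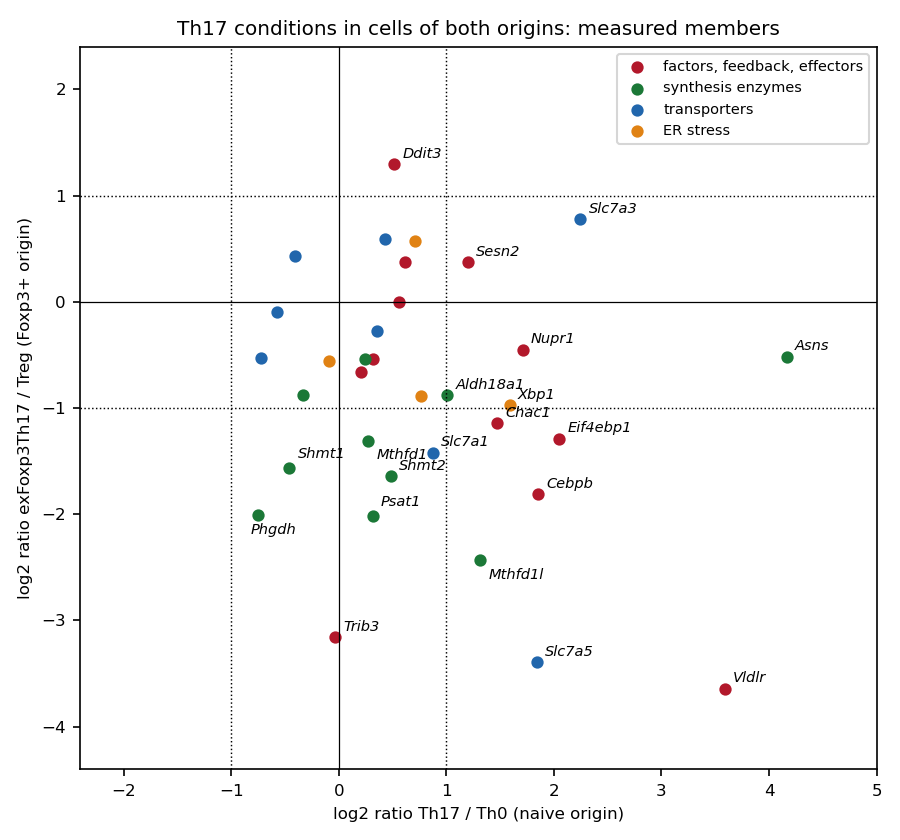
Log2 ratio of Th17 over Th0 (x axis) and of exFoxp3Th17 over Treg (y axis) for the 34 measured members, coloured by role, with dotted lines at 2-fold. The lower right corner holds the 6 members higher in Th17 than in Th0 and lower in exFoxp3Th17 than in Treg, with Vldlr farthest out at 3.59 and -3.64.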

How the data were processed

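Total RNA from 4 sorted T cell populations, 1 µg each, was labelled and hybridised to Affymetrix arrays, per the labels' protocols. The authors deposited 1 linear intensity per probe set and array. MAS5 is the tool named in the submitters' processing notes, with its version not given in the sources used here. The mean after trimming 2% of probe sets at each end was 100.0 on each array, so the scaling was kept. Gene names come from GEO's platform annotation, updated by gene identifier through a RefSeq table (GRCm38.p6), and 34945 of 45101 have 1 gene. Promoters are from RefSeq. Signals under the floor of 12.1 were set to it before log2. Genes above it on at least 1 array count as measured (11769).

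With 1 array per group no test is possible, no spread between samples can be given, and the number of arrays limits the precision. Between probe sets of 1 gene, log2 ratios differed with a robust SD of 0.41 to 0.50. The members and lists were chosen with earlier results of these data known. Named from the other lists were up to 4 called genes of a list in each comparison, by size of ratio, with Myc, sort markers, sex-linked genes and cell type markers; fewer are printed. Cell type markers named without a 2-fold difference and the second probe sets were chosen after their values were seen. Alternatives were 2 scalings, 2 treatments of the floor, 2 choices of probe set and 2 folds, and, chosen after seeing the data, leaving out probe sets ending in _x_at or _s_at. Python 3.11.15, pandas 2.3.3 and numpy 2.4.6 were used.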

Additional observations from a re-analysis of the deposited data

Results flagged for a closer look

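The 6 members listed last in the report were singled out because the array of Th17 conditions moved up against its partner in cells of naive origin and down in cells of Foxp3+ origin. The value given is the log2 ratio of exFoxp3Th17 to Treg minus that of Th17 to Th0. It was -7.23 for Vldlr, -5.23 for Slc7a5, -3.75 for Mthfd1l, -3.66 for Cebpb, -3.34 for Eif4ebp1 and -2.61 for Chac1. The Chac1 value rests on a Th0 signal below the floor and is a bound, and at 2 times the floor Chac1 no longer showed the pattern (log2 0.47 for Th17 to Th0 and -0.37 for exFoxp3Th17 to Treg). Over the mean of its probe sets, Eif4ebp1 also left the pattern (log2 -0.97 for exFoxp3Th17 to Treg). Each ratio has 1 array on either side, so the difference was not tested. The female pattern of sex-linked transcripts on the exFoxp3Th17 array and the IL-2 culture of Treg cells move with it, and their part was not tested.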

How the results depend on the processing

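No paired analysis was possible because each group has 1 array. Of 86 recomputed counts of members, 77 stayed within 1.5 times the reported one, under both scalings and both treatments of the floor in particular, and none of the called ratios changed sign. At 3-fold, 9 members were lower in exFoxp3Th17 than in Th17, 8 lower and 0 higher in exFoxp3Th17 than in Treg, and 3 higher in Treg than in Th0. At 1.5-fold, 1 member was higher in exFoxp3Th17 than in Th17, 3 higher in exFoxp3Th17 than in Treg, 2 lower in Th17 than in Th0, and 14 higher in Treg than in Th0. Averaging all probe sets of each gene, 0 were higher in exFoxp3Th17 than in Treg, since Ddit3 was not called. Equal medians moved the count over all genes of exFoxp3Th17 against Th17 to 774 higher and 941 lower, where 880 and 856 were reported. Over the 4 comparisons and both directions, 582 to 1328 genes were called at 2-fold, 169 to 555 at 3-fold and 1409 to 2647 at 1.5-fold. Dim members (Chac1, Nupr1, Slc7a3, Vldlr in exFoxp3Th17, and Asns and Sesn2 in Th0) lie near the floor, where folds are least certain.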
